A study of Mus musculus with 24 samples.

Results

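The hexosamine pathway turns a small share of the glucose that enters a cell into UDP-GlcNAc, the activated sugar from which cells build N-glycans, hyaluronan, heparan sulfate and GPI anchors. GFPT1 and GFPT2 join fructose phosphate with nitrogen from glutamine, GNPNAT1 acetylates the product, PGM3 moves its phosphate, and UAP1 couples the sugar to uridine. NAGK returns free GlcNAc to the same route by phosphorylating it, and OGT and OGA attach and remove single GlcNAc units on nuclear and cytosolic proteins, a modification known for following nutrient supply. The 9 genes described here encode these enzymes and UAP1L1, a relative of UAP1, and were taken from 56941 gene IDs by name: Gfpt1, Gfpt2, Gnpnat1, Pgm3, Uap1, Uap1l1, Nagk, Ogt and Oga. The set was chosen by the CPM values in high against normal glucose, where Uap1l1 was higher, so the difference between the media is given for these genes as a description and was not tested.

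The values are read counts of polyadenylated RNA from an adult mouse hypothalamic neuronal cell line grown at 2 glucose levels, normal and high. Some of the groups received mogroside V, a glycoside that gives monk fruit its sweetness. There were 8 groups of 3 libraries: NGC, normal glucose without the compound; NG1, NG2 and NG3, normal glucose with mogroside V at dose labels 1, 2 and 3; HGC, the control in high glucose; and HG1, HG2 and HG3, its treated counterparts. The design of the series lists 15, 60 and 160 µM mogroside V, and which of them a dose number stands for is not stated. The glucose concentrations, the time in culture and the composition of the control medium are not given in the sources used here, and the groups hold no osmotic control. All groups come from 1 cell line, and no label says that replicates were separate cultures. The p-values therefore measure the spread among these libraries only, and that spread may be technical.

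The files of HG2 replicate 3 and HG3 replicate 2 were identical on all 56946 lines, and both were left out, which leaves 12 normal-glucose and 10 high-glucose libraries with n = 2 in HG2 and HG3. Levels are given in CPM, counts scaled to a TMM-adjusted library size of 1000000. The 22 libraries held 3396249 to 7773074 counts in genes, with a median of 3864826. Of the defining markers of neurons, Map2, Tubb3 and Stmn2 were present, at mean levels of 47.5, 58.8 and 17.9 CPM, whereas Rbfox3, Snap25 and Syt1 were each under 1 CPM. All 10 hypothalamic peptide genes looked at were under 1 CPM, and so were 4 of 5 markers of astrocytes and tanycytes, 2 of 3 of oligodendrocytes, 2 of 4 of microglia and 3 of 3 of endothelium. The 5 markers of fibroblasts and pericytes were all present, with summed levels of 3145 to 5446 CPM in normal and 4568 to 5793 CPM in high glucose. The summed levels of the neuron markers were 115.0 to 151.0 CPM and 105.7 to 127.7 CPM. In such bulk RNA, fewer cells of a type and less RNA per cell cannot be told apart. The 4 microglia markers summed to 4.44 to 12.1 CPM in normal and 7.80 to 23.3 CPM in high glucose. Csf1r had means of 5.30 and 9.59 CPM, Cx3cr1 had 3.43 and 3.26 CPM, and Aif1 and P2ry12 were under 1 CPM. The ranges of these 3 sums overlapped between the media, the fibroblast and microglia sums lying higher and the neuron sum lower in high glucose. Of the markers above 1 CPM, Cx3cr1, Pdgfra (means of 39.7 and 38.8 CPM) and Stmn2 (17.3 and 18.7 CPM) went against their sums. The part of these sums in the values below was not tested.

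The pathway has 2 pairs of related genes whose reads would have to be told apart for the values to hold. The coding sequences of Uap1l1 and Uap1 (1521 and 1566 bases) were identical at 63.7% of 1508 aligned bases, and their longest identical run was 15 bases. Those of Gfpt1 and Gfpt2 (2091 and 2046 bases) were identical at 72.1% of 2046 aligned bases, with a longest run of 23. The most alike stretches of 90 bases without a gap are printed because they show where reads of a pair would be hardest to separate. They lie at coding positions 841 to 930 of Uap1l1 and 832 to 921 of Uap1, and at 373 to 462 of Gfpt1 and 364 to 453 of Gfpt2, from the GENCODE transcripts on GRCm38. Capitals mark the bases at which the members of a pair differ, 18 in the first pair and 15 in the second.
Uap1l1: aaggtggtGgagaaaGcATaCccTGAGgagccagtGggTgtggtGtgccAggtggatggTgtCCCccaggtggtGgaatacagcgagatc
Uap1: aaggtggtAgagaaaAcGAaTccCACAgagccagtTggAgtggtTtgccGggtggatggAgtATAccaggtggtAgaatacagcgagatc
Gfpt1: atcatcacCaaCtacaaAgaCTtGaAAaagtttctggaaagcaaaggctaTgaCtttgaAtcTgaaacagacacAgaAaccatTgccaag
Gfpt2: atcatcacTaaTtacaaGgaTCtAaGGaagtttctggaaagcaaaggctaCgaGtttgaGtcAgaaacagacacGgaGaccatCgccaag
No run of 50 bases of Uap1l1, Gfpt2, Nagk or Ogt occurred in transcripts of another gene. Of such runs, 24 of 4101 of Uap1 and 5 of 10113 of Gfpt1 did, none of them shared within a pair. So did 648 of 8678 runs of Oga, 1172 of 4478 of Pgm3 and 3739 of 4961 of Gnpnat1. Most of those of Oga were shared with Gm15491, whose exons on the opposite strand cover 6.4% of its exonic bases.

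The genes of the first step were present at unlike levels. Gfpt1, the broadly expressed form of the amidotransferase, had the highest mean of the 9 genes, with 142.2 to 246.1 CPM in normal glucose (median 210.1) and 175.2 to 243.2 CPM in high glucose (median 206.5). The ranges overlapped throughout, and the fitted difference was 0.00 ± 0.07 (SE) on the log2 scale. Gfpt2, the second form, had 16.95 to 26.01 CPM in normal glucose (median 23.1) and 21.45 to 34.33 CPM in high glucose (median 26.8). Of the 10 high-glucose libraries, 6 lay above every normal-glucose library, and the log2 difference was 0.25 ± 0.10. The file deposited under both HG2 and HG3, left out here, had 17.7 CPM of Gfpt2, below all 10. With all 24 files the log2 difference was 0.16. Gfpt2 made up 10.3 ± 1.64% of the counts of both forms in normal glucose and 11.8 ± 1.70% in high glucose (SD over 12 and 10 libraries).

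Gnpnat1, the acetyltransferase of the second step, was barely counted. It had 0 counts in 19 of 22 libraries and 8 counts in all, 3 in NG3 replicate 1, 1 in HG2 replicate 1 and 4 in HG3 replicate 1. A count of 0 allows up to 3 counts, which is 0.374 to 0.869 CPM in these libraries (counting error only). In the annotation, exons of Styx on the opposite strand cover 81.9% of its exonic bases, and Styx itself had 0.248 to 5.82 CPM. The sources used here do not state whether reads were counted by strand. How reads that fall on both genes were counted is therefore not known, and the level of Gnpnat1 in these cells is uncertain.

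Pgm3, the mutase of the third step, was at 0.392 to 3.24 CPM in normal glucose (median 1.57) and 1.11 to 3.87 CPM in high glucose (median 2.03), with no more than 26 counts in any library. The ranges overlapped, with a log2 difference of 0.43 ± 0.37, which was 1.14 ± 0.71 in the controls alone. It was 0.16 without HG2 replicate 2 and 0.27 without HG1 replicate 3. Exons of Dop1a on the opposite strand, a gene at 8.17 to 27.9 CPM, cover 28.3% of its exonic bases, which makes its level uncertain in the same way.

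At the last step, Uap1l1 was higher in high glucose at every treatment level, and the ranges of Uap1 overlapped. Uap1l1 stood at 71.0, 64.6 and 82.8 CPM in NGC, at 79.7, 80.6 and 79.1 CPM in NG1, at 77.5, 73.4 and 85.9 CPM in NG2 and at 79.4, 61.9 and 109.7 CPM in NG3. It stood at 199.7, 211.3 and 181.0 CPM in HGC, at 168.1, 170.5 and 188.7 CPM in HG1, at 174.9 and 204.4 CPM in HG2 and at 188.7 and 181.8 CPM in HG3. All 10 high-glucose libraries lay above all 12 normal-glucose libraries. The highest of the latter, NG3 replicate 3, is also the library with the fewest detected genes (16535) and the smallest share of reads outside genes (14.4%). The share of all genes whose ranges do not overlap between the media is not given here. How unusual such a separation is was therefore not assessed, for Uap1l1 or for genes named below. The means were 78.8 ± 12.1 and 186.9 ± 14.5 CPM (SD), a 2.38-fold or log2 difference of 1.25 ± 0.07 (SE). Without NG3 replicate 3 and HGC replicate 2, both named as apart from the rest in an earlier analysis of these data, the log2 difference was 1.31.

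In the order of the group means Uap1l1 went from 72.8 CPM in NGC through 78.9 in NG2, 79.8 in NG1 and 83.7 in NG3 to 175.8 in HG1, 185.3 in HG3, 189.7 in HG2 and 197.3 in HGC. Neighbours in this order overlapped in their libraries, except at the step from NG3 to HG1. The log2 difference between the media was 1.44 ± 0.14 in the controls and 1.14 ± 0.14, 1.27 ± 0.15 and 1.15 ± 0.15 at dose labels 1, 2 and 3.

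Uap1, the pyrophosphorylase of the pathway, had 34.4 to 57.2 CPM in normal glucose (median 44.1) and 35.1 to 60.5 CPM in high glucose (median 39.5). The ranges covered one another almost fully, and the log2 difference was 0.01 ± 0.09. The highest values in either medium came from dose label 3, with 57.2 CPM in NG3 replicate 3 and 60.5 CPM in HG3 replicate 1.

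Within the pair, Uap1l1 made up 64.3 ± 3.32% of the counts of Uap1l1 and Uap1 in normal glucose (57.8 to 69.8%) and 81.2 ± 2.82% in high glucose (75.7 to 84.3%), with no overlap. This share does not depend on the library sizes. Across the 4 high-glucose groups the mean share was 83.0% in HGC, 82.3% in HG1, 80.9% in HG2 and 77.3% in HG3.

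**Figure D1:**
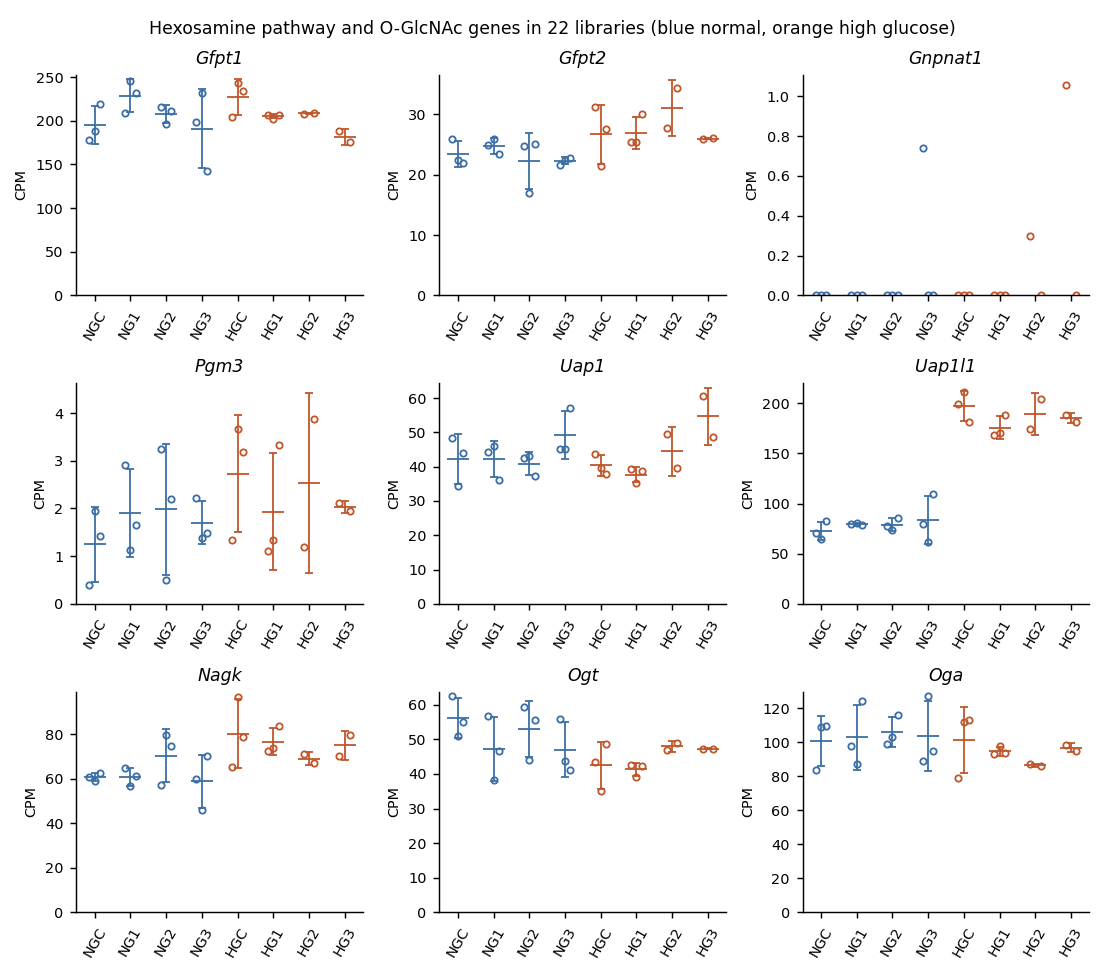
CPM of the 9 genes (linear axes from 0, a scale of its own in each panel) in the 8 groups, with a circle for each of the 22 libraries and, except for Gnpnat1, the mean ± SD of the group as a bar. Uap1l1 lies at 61.9 to 109.7 CPM in normal and 168.1 to 211.3 CPM in high glucose, and the ranges of the media overlap in every other panel.

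Nagk, the salvage kinase, had 46.1 to 79.5 CPM in normal glucose (median 60.9) and 65.3 to 96.5 CPM in high glucose (median 73.1). Of the high-glucose libraries, 3 lay above every normal-glucose library, and the log2 difference was 0.27 ± 0.08. At dose label 2 alone the means were close, with 70.3 ± 11.7 CPM in NG2 (SD, n = 3) and 68.9 ± 2.95 CPM in HG2 (n = 2).

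Of the enzymes of O-GlcNAc cycling, Ogt, the transferase, had 38.3 to 62.4 CPM in normal glucose (median 53.0) and 35.1 to 49.0 CPM in high glucose (median 45.2). No high-glucose library was above the normal-glucose range and 1 was below it, with a log2 difference of -0.19 ± 0.09. For Ogt this difference was -0.41 ± 0.16 in the controls and -0.19 ± 0.16, -0.15 ± 0.18 and 0.01 ± 0.18 at dose labels 1, 2 and 3. Oga, the hydrolase, had 83.6 to 127.3 CPM (median 101.1) and 78.8 to 113.2 CPM (median 94.3), with a log2 difference of -0.12 ± 0.08. Oga made up 66.9 ± 4.98% of the counts of the 2 genes in normal glucose and 68.2 ± 3.70% in high glucose, and the ranges of this share overlapped.

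**Figure D2:**
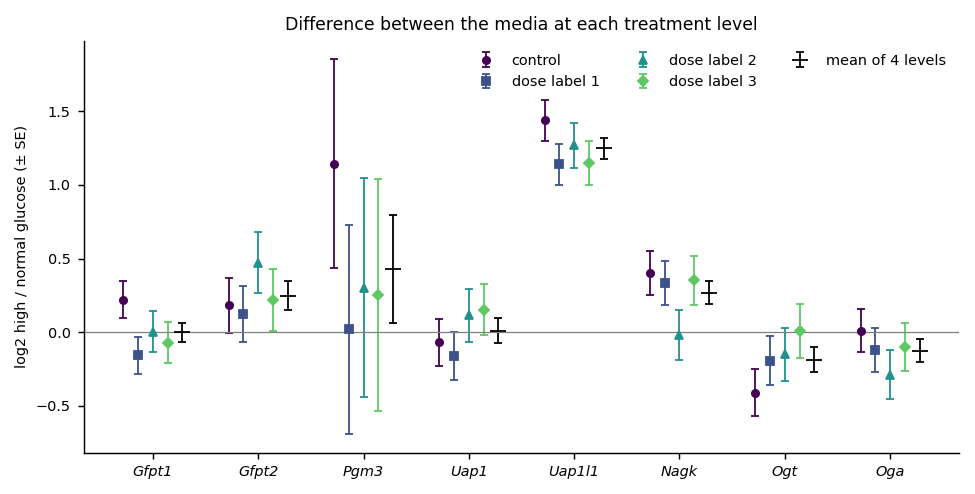
Log2 difference of high against normal glucose ± SE for the 8 genes with enough counts to be fitted, at the control and each dose label and as the mean of the 4 levels (dashes). Uap1l1 lies between 1.14 and 1.44 at all levels, and no other gene has a mean difference above the 0.43 of Pgm3, whose SE is 0.37.

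Of the 9 genes, 8 had enough counts to enter the fit and Gnpnat1 did not. Over all genes the same fit called 10.1% of 13281 different between the media at an adjusted p under 0.05 (edgeR, Benjamini-Hochberg), 5.71% higher and 4.38% lower in high glucose. That share is the background for the genes below and says nothing about the 9, whose choice rested on this contrast.

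Per kilobase of exon, which puts genes of unlike length on 1 scale, Uap1l1 had the highest level of the set in high glucose. Its group means there were 52.5 to 58.9 CPM per kb with the exon lengths of the basic GENCODE set, above Nagk (30.4 to 35.3) and Gfpt1 (25.8 to 32.3). With the exon lengths of all GENCODE transcripts, an alternative added after seeing the data, they were 43.2 to 48.5 CPM per kb, again above Gfpt1 (18.0 to 22.6) and Nagk (14.7 to 17.2). In normal glucose the place of Uap1l1 turned on the lengths. With the basic set its 21.74 to 24.98 CPM per kb lay under Gfpt1 (27.1 to 32.5) and Nagk (25.9 to 31.0). With all transcripts its 17.9 to 20.6 CPM per kb lay above Nagk (12.6 to 15.0) and overlapped Gfpt1 (18.9 to 22.7). With the basic lengths Uap1 had 16.0 to 23.2 CPM per kb over the 8 groups and Oga 14.4 to 17.6, which overlap. Ogt (7.67 to 10.4) and Gfpt2 (7.57 to 10.5) also overlapped, and Pgm3 was lowest of the fitted genes, at 0.469 to 1.02 CPM per kb.

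**Figure D3:**
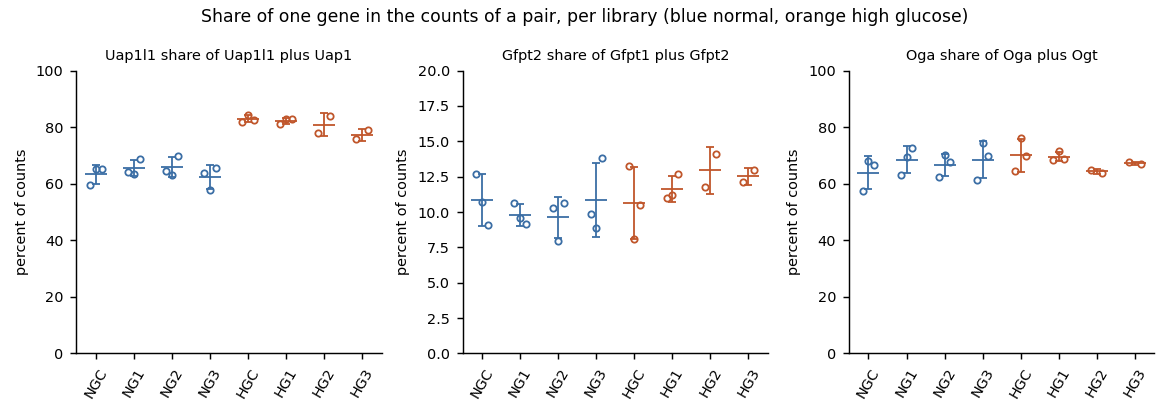
Share of 1 gene in the summed counts of a pair, in percent, for each library (circles) with the group mean ± SD, on axes from 0 that end at 20% for Gfpt2 and 100% for the others. The Uap1l1 share moves from 57.8 to 69.8% in normal glucose to 75.7 to 84.3% in high glucose, while the other shares overlap between the media.

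The compound was compared with the control of the same medium, a contrast that the choice of genes did not use. In normal glucose none of the 8 fitted genes passed the threshold for the mean of NG1, NG2 and NG3 against NGC, where 0.0% of all genes did (edgeR), and none had an unadjusted p under 0.05, against 1120 genes in all; DESeq2 called 68 genes and none of the 8. Uap1l1 differed by 0.15 ± 0.12 on the log2 scale (95% interval -0.08 to 0.38, adjusted p = 0.806), Gfpt1 by 0.10 ± 0.10 and Ogt by -0.20 ± 0.13 (-0.45 to 0.06). In high glucose 0.0% of all genes passed for the mean of HG1, HG2 and HG3 against HGC, 679 genes had an unadjusted p under 0.05, none of them among the 8, and DESeq2 called 0. Uap1l1 differed by -0.11 ± 0.11 (-0.33 to 0.12, adjusted p = 0.985), Uap1 by 0.16 ± 0.14 and Gfpt1 by -0.20 ± 0.10 (-0.41 to 0.01).

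**Figure D4:**
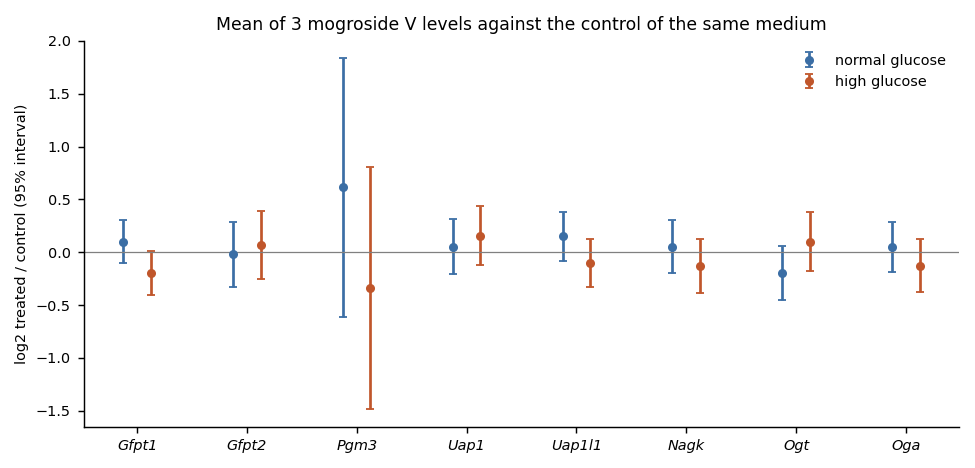
Log2 difference of the mean of the 3 mogroside V groups against the control of the same medium with its 95% interval, for the 8 fitted genes in normal (blue) and high (orange) glucose. Every interval includes 0, and that of Pgm3 in normal glucose reaches from -0.61 to 1.84.

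The effects of the compound in the 2 media were also compared with each other. Of all genes 0.00753% passed this test, which is 1 of 13281, and none of the 8 (edgeR); 1126 genes had an unadjusted p under 0.05, and DESeq2 called 29, none of the 8. Gfpt1 was the only 1 of the 8 with an unadjusted p under 0.05, with a difference between the effects of -0.30 ± 0.15 (edgeR adjusted p = 0.588). For Uap1l1 it was -0.25 ± 0.16 (-0.58 to 0.07, adjusted p = 0.7).

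Any difference among the 4 levels of a medium was tested as well. In normal glucose 0.0% of all genes and none of the 8 passed, with 968 genes and none of the 8 at an unadjusted p under 0.05 (edgeR) and 74 genes called by DESeq2. In high glucose 0.0% of all genes and none of the 8 passed, with 1014 genes at an unadjusted p under 0.05 and 45 called by DESeq2. Uap1 was the 1 of the 8 among these 1014 (edgeR adjusted p = 0.584). It stood at 43.8, 39.5 and 37.9 CPM in HGC and at 60.5 and 48.8 CPM in HG3, with a log2 difference of 0.44 ± 0.18. The file left out, which is deposited under HG3 as well as HG2, had 43.7 CPM of Uap1, within the range of HGC. Gfpt1 stood at 204.6, 243.2 and 234.0 CPM in HGC and at 188.2 and 175.2 CPM in HG3 (log2 -0.32 ± 0.14). The file left out had 200 CPM of Gfpt1. Both comparisons rest on 2 libraries of HG3, and neither gene passed the adjusted threshold (adjusted p = 0.999 each for HG3 against HGC, edgeR).

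The shares within the pairs were compared between all treated libraries of a medium and its controls by exact 2-sided permutation tests, 6 in all. Single dose labels were not tested. With permutation p-values of 0.217 to 0.591 (adjusted 0.5 to 0.591) no share was called different. The smallest p these designs can give is 0.00909 in normal and 0.0167 in high glucose. With 3 control libraries in each medium and the dose labels pooled, these tests do not show that the shares were equal. The largest difference was in the Oga share of normal glucose, 67.9% with and 64.0% without the compound. The Uap1l1 share was 80.5% in the treated and 83.0% in the control libraries of high glucose.

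The rest of UDP-GlcNAc metabolism was followed in 64 genes listed by role, of which 61 had enough counts. Between the media 7 rose, 1 fell and 53 were not called, that is 11.5% and 1.64% against 5.71% and 4.38% of all genes, and the median log2 difference was 0.01, against -0.01 over all genes. None of the 61 was called in any of the 5 tests of the compound. The list was drawn up with earlier results of these data known, Hexa among them.

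Of the 7 genes that rose, 4 were among the 8 fitted genes of GlcNAc salvage and breakdown, whose median log2 difference was 0.46. Renbp, an epimerase that connects GlcNAc with N-acetylmannosamine, had 19.3 to 34.2 CPM in normal glucose (median 24.5) and 45.3 to 56.0 CPM in high glucose (median 52.0), without overlap. It rose by 1.02 ± 0.09 on the log2 scale (edgeR adjusted p = 3.09e-11). Gnpda1, a deaminase that returns glucosamine phosphate to glycolysis and so runs against the GFPT reaction, rose by 1.51 ± 0.21 from a low 3.54 ± 1.53 to 9.59 ± 3.64 CPM (adjusted p = 1.19e-06), and 8 of 10 high-glucose libraries were above every normal-glucose library. Amdhd2, which removes the acetyl group from GlcNAc phosphate, rose by 0.75 ± 0.11 (18.0 ± 4.25 to 31.5 ± 8.61 CPM, adjusted p = 3.96e-06). Hexa, the alpha subunit of the lysosomal hexosaminidase, rose by 0.72 ± 0.07 (70.7 ± 13.2 to 118.6 ± 16.9 CPM). Its result was known when the list was drawn up, so no p-value is given for it. The counts of 4 and 7 genes that rose include it.

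At single treatment levels the differences of these 4 genes varied. None was called in the test of whether the effect of the compound differed between the media, but that test pools the 3 dose labels. Whether the difference between the media varied from dose to dose was not tested. Renbp differed between the media by 1.15 ± 0.17, 1.04 ± 0.17, 1.13 ± 0.19 and 0.75 ± 0.19 (SE) on the log2 scale at the control and dose labels 1, 2 and 3. Hexa differed by 1.11 ± 0.14, 0.91 ± 0.14, 0.65 ± 0.15 and 0.19 ± 0.15, and Amdhd2 by 1.27 ± 0.21, 1.04 ± 0.20, 0.21 ± 0.23 and 0.47 ± 0.23. The values of Gnpda1, which rest on few counts, were 1.67 ± 0.41, 0.56 ± 0.39, 2.25 ± 0.43 and 1.56 ± 0.43. Whether the genes differed from each other in this was not tested. Among the salvage genes that were not called, the log2 differences were -0.04 ± 0.25 for Gnpda2, 0.03 ± 0.27 for Hexd and 0.20 ± 0.16 for Naglu.

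In the other sublists 3 of 53 fitted genes rose (5.66%) and 1 fell (1.89%), shares that are near or under the 5.71% and 4.38% of all genes and so no result about these sublists. Hk2, an inducible hexokinase, was the 1 of 7 genes of sugar and glutamine input that rose (0.50 ± 0.09, adjusted p = 5.93e-05), from 55.6 ± 9.37 to 79.3 ± 11.7 CPM. Ugp2, which makes UDP-glucose, was the 1 of 11 genes of other UDP-sugars and sialic acid (0.34 ± 0.07, adjusted p = 0.000571). Slc35b4, a Golgi transporter of UDP-xylose and UDP-GlcNAc, was the 1 of 6 transporters (0.33 ± 0.08, adjusted p = 0.00561). Has1, a hyaluronan synthase, fell by 0.85 ± 0.19, from 9.31 ± 2.56 to 5.28 ± 1.64 CPM (adjusted p = 0.00168), the 1 of 9 fitted genes of GPI anchors, hyaluronan and heparan sulfate. None of 12 fitted genes that build N-glycans and none of 8 O-GlcNAc partners, among them Hcfc1, Tet1 to Tet3 and the endoplasmic reticulum transferase Eogt, was called.

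**Figure D5:**
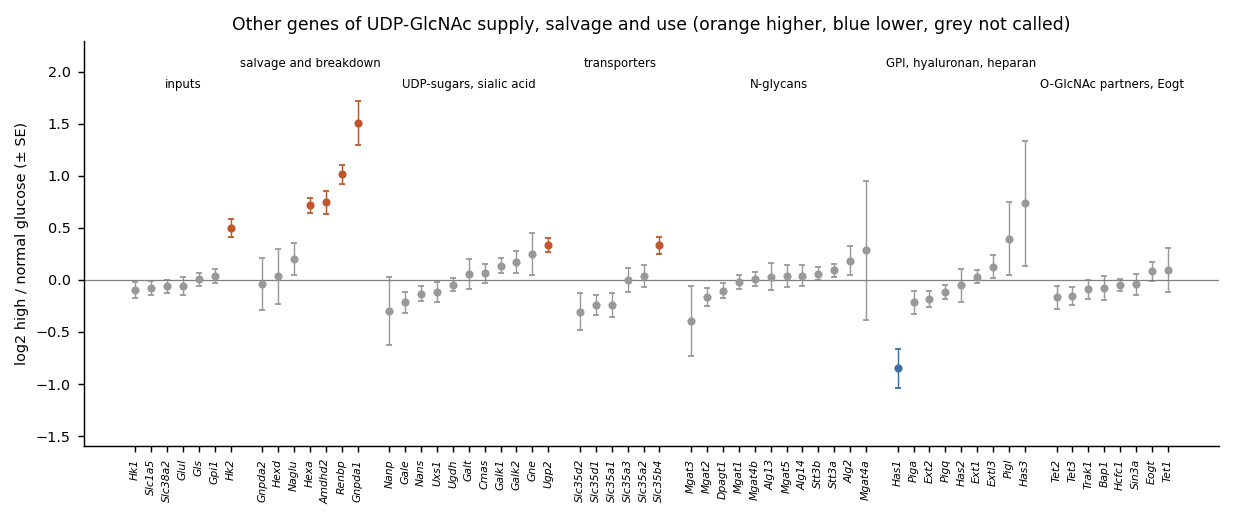
Log2 difference of high against normal glucose ± SE for fitted genes of UDP-GlcNAc supply, salvage and use, ordered by size within each sublist. The 4 salvage genes that rose lie between 0.72 and 1.51, the other 3 that rose between 0.33 and 0.50, and Has1 at -0.85.

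Likeness to Uap1l1 was measured as Pearson's r of log2 CPM over the 22 libraries for 10200 genes with a mean of at least 5 CPM, as a description. The libraries share their medium, so r over all of them mostly repeats the difference between the media. The 5 highest were Mt1 (metallothionein, r = 0.98), Slc20a1 (a phosphate transporter, 0.97), Grn (progranulin, 0.96), Lox (lysyl oxidase, 0.96) and Ctsd (cathepsin D, 0.96). The 3 lowest were Far1 (a fatty acyl-CoA reductase, -0.95), Pcdh19 (a protocadherin, -0.92) and Egr1 (an early response transcription factor, -0.90).

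Within a medium the likeness of all 5 was smaller, least so for Ctsd, with r = 0.90 over the 12 normal-glucose and 0.81 over the 10 high-glucose libraries. Mt1 had 0.74 and 0.66, and Egr1 had -0.57 and -0.91. Among the pathway genes, r with Uap1l1 over the 22 libraries was 0.68 for Nagk, 0.59 for Gfpt2, 0.04 for Uap1, -0.01 for Gfpt1, -0.34 for Oga and -0.48 for Ogt. Of the 10200 genes, 365 were more like Uap1l1 than Nagk was, and 4368 more than Uap1.

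The genes that lie next to Uap1l1 in the RefSeq order of GRCm38.p6 did not all share its pattern. Dpp7, a lysosomal dipeptidase and the nearest gene with an ID on 1 side, rose by 1.18 ± 0.09, from 27.4 ± 4.31 to 63.1 ± 9.85 CPM (edgeR adjusted p = 1.17e-13). Man1b1, a mannosidase on the same side, was not called (-0.10 ± 0.08, adjusted p = 0.508). On the other side Sapcd2 was not called (-0.26 ± 0.14, adjusted p = 0.251), Entpd2 was too low to be fitted (1.21 ± 0.87 and 0.961 ± 0.51 CPM), and Npdc1 fell by 0.28 ± 0.09 (adjusted p = 0.0305). The lncRNA between Dpp7 and Uap1l1, Gm46732, had no ID in the files.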

How the data were processed

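Polyadenylated RNA was sequenced after DNase treatment, per the labels' protocols. The authors deposited whole-number read counts per gene, 1 file per library, not normalized. Per the submitters' processing notes, the tools were STAR 2.7.5c, HTSeq 1.99.2, FastQC 0.11.9 and DESeq2 3.16, and the build was GRCm39. The strand setting and the annotation release are not given in the sources used here. Each file lists 56941 gene IDs, of which 51948 had a symbol in the name table, where Oga is listed as Mgea5 and Hexd as Hexdc. The HTSeq summary lines stayed out of library sizes and tests. Reads outside genes made up 14.4 to 20.6%, ambiguous reads 3.46 to 4.15% and reads with several alignments 16.5 to 18.9% of a library.

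The 9 genes, the 64 further pathway genes and the tests were chosen with earlier results of these data known. The sample titles gave each library's group and replicate number. Counts were fitted with edgeR 4.0.16 in R 4.3.3 (TMM factors, the filter of low counts at its defaults, a mean for each of 8 groups, robust quasi-likelihood F tests, 14 residual degrees of freedom, common biological coefficient of variation 0.149). The filter kept 13281 genes. Benjamini-Hochberg adjustment ran over all of them, with a threshold of 0.05. The main media contrast is the mean of the 4 differences between high and normal glucose at the same treatment level. The SE of a log2 difference was taken from the estimate and its F statistic. CPM are given as mean ± SD over libraries. The wider list was named by the rule of up to 4 called genes a sublist and direction with the lowest p, the likeness by the 5 highest and 3 lowest correlations, and the neighbours by the 3 nearest genes on each side; the genes that were not called are given as further examples. Exon lengths, overlaps and coding sequences come from GENCODE M21 on GRCm38, another build than that of the files, and no genome coordinates are printed. Alternatives were DESeq2 1.42.0, RLE factors, fits of unfiltered counts, fits of the compared groups alone, a replicate block, each library left out in turn, 3 treatments of the identical file, leaving out the 2 libraries that stand apart and, added after seeing the data, exon lengths of all transcripts. The scripts were tested on simulated counts. Some genes of the wider list are not reported here by name and are not drawn, but are part of its counts.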

Additional observations from a re-analysis of the deposited data

Results flagged for a closer look

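The file deposited under both HG2 replicate 3 and HG3 replicate 2 enters no comparison above. In it Uap1l1 had 175.6 CPM, above the highest normal-glucose library (109.7 CPM) and within the range of the high-glucose libraries (168.1 to 211.3 CPM). Uap1 had 43.7 CPM and Gfpt1 200 CPM there, inside the ranges of both media, Nagk had 78.8 CPM and Ogt 35.8 CPM. Gfpt2 had 17.7 CPM there, below the range of the high-glucose libraries (21.45 to 34.33 CPM) and inside that of normal glucose (16.95 to 26.01 CPM). With all 24 files, which hold this file under both labels, the log2 difference of Gfpt2 between the media was 0.16, against 0.25 without it. To which dose label this library belongs cannot be told from the files.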

How the results depend on the processing

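Over 30 alternatives the log2 difference of Uap1l1 between the media lay between 1.21 and 1.32, and 7 genes of the wider list rose in each of them. None of the 8 fitted genes was called in a test of the compound in any alternative. The counts of all genes called there were small and moved. For the mean of the treated groups in normal glucose, DESeq2 called 68 genes, a fit with no low-count filter 62, all 24 files 3, the identical file once in HG2 or in HG3 3 each, and a fit without the 2 libraries that stand apart 4. For the mean of the treated groups in high glucose, no filter gave 5. For the difference between the effects, DESeq2 gave 29, no filter 42, all 24 files 6, and the identical file once in HG2 6 and in HG3 3. Among the levels of normal glucose, DESeq2 gave 74, no filter 102, only the groups of the comparison 1, and leaving out the libraries that stand apart 1. Among those of high glucose, DESeq2 gave 45, no filter 153, only the groups of the comparison 81, all 24 files 16, the identical file once in HG2 or HG3 6 each, and leaving out the libraries that stand apart 4. Leaving out 1 library at a time gave 0 to 10 genes for the treated groups in normal glucose, the most without NG3 replicate 1, and 0 to 4 for the difference between the effects, the most without NG3 replicate 3. It gave 0 to 26 among the levels of normal and 0 to 17 among those of high glucose, the most without NG3 replicate 2 in both, and 1 to 2 lowered genes of the wider list, with 2 without HG1 replicate 3. The cause was not tested.

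With a replicate block, 48 genes were called among the levels of high glucose. Deviations of same-numbered libraries correlated between -0.108 and 0.165 in 70 pairs (median 0.0107), over 0.1 in 1. Those of libraries with other numbers correlated between -0.133 and 0.131 in 141 pairs (median -0.00508), over 0.1 in 5. Whether the numbers pair the libraries was not tested.

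Some small log2 changes with the compound turned sign. In high glucose Gfpt2 went from 0.07 to -0.0609 with all 24 files, -0.0043 with the identical file in HG2 and -0.0713 without the libraries that stand apart. Without these, Nagk went from -0.13 to 0.0288 and Ogt from 0.10 to -0.0203. The difference between the effects went from 0.09 to -0.0383 for Gfpt2 with all 24 files and to -0.0444 without the libraries that stand apart, and from -0.18 to 0.0274 for Nagk without them. With 1 library left out, changes in normal glucose ran from -0.0743 to 0.1649 (Uap1), -0.0675 to 0.0602 (Gfpt2) and -0.0685 to 0.1177 (Oga). Their signs turned without NGC replicate 2 for Uap1, without NGC replicate 1 or NG2 replicate 2 for Gfpt2, and without NGC replicate 1, NG1 replicate 3 or NG3 replicate 2 for Oga. In high glucose they ran from -0.0718 to 0.1954 (Gfpt2), -0.2575 to 0.0282 (Nagk) and -0.0208 to 0.2096 (Ogt), the signs turning without HGC replicate 2. The differences between the effects ran from -0.0079 to 0.2313 (Uap1, turning without NGC replicate 1) and -0.0516 to 0.216 (Gfpt2, turning without HGC replicate 2). Gnpnat1 had too few counts to be fitted, and the SE of Pgm3 was the largest of the 8.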

Other observations

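Of the genes of the wider list that were too low to be fitted, Alg1 and Pigh share exonic bases with a gene on the opposite strand, as Gnpnat1 and Pgm3 do. Alg1, a mannosyltransferase of N-glycan assembly, had 0.405 CPM, with 17.6% of its exonic bases covered by Eef2kmt. Pigh, a subunit of the enzyme that starts GPI anchors, had 0.226 CPM, with 27.3% covered by Plekhh1. By contrast Nans and Galt, 2 listed genes with a like cover of 29.6% and 26.7%, had 64.6 and 10.96 CPM. Over all protein-coding genes of the annotation, 38 of the 39 with at least 90% of their exonic bases covered on the opposite strand were under 1 CPM (97.4%), as were 58.6% of 145 with 50 to under 90%, 31.7% of 5050 with a smaller cover and 52.5% of 16515 with none. Genes with under 50% cover were thus less often under 1 CPM than genes with none. The levels of covered genes are uncertain here, since the sources used here do not state whether reads were counted by strand.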
